A study of Mus musculus with 7 samples.

Results

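The genes described are the axon guidance ligands and receptors of the mouse, taken by name from the gene columns of the single-nucleus count tables. All columns named as a class 3 to 7 semaphorin, a plexin, a neuropilin, an Eph receptor, an ephrin, a Robo, a Slit, an Unc5 receptor, a netrin or Dcc were taken, which gave 70 of 25871 columns. Of these, 34 code for ligands and 34 for receptors, and the remaining 2, Plxna4os1 and Plxna4os2, are antisense transcripts that the name pattern for plexins also matched. Ntn3 has no column of its own and was not analysed here. The name rule itself uses no measured value.

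Guidance proteins steer growing axons, and most of the families remain expressed in the adult cortex. Semaphorins act through plexins, the secreted class 3 members mostly together with a neuropilin. Slits act through Robo receptors, and netrins act through Dcc and the Unc5 receptors. Ephrins and Eph receptors sit on facing membranes and can signal into both cells. In the adult brain the same proteins are known from synapse maintenance, from myelinating cells and from blood vessels.

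The study screened candidate enhancers for activity in somatostatin (SST) interneurons. Single-nucleus RNA-seq was done on primary visual cortex (V1) of male C57BL/6J mice of 6 to 10 weeks whose cortex had received a pool of AAV9 enhancer reporters, so every nucleus came from virus-injected tissue and no uninjected group exists. The methods give 2 animals with 5 libraries each, whereas the sample labels combine all 10 libraries as 1 sample and name no animal, so the libraries are referred to as set 1 and set 2 by the first digit of their names. Chromatin was profiled by ATAC-seq, which reads open chromatin through transposase insertion, in nuclei isolated from whole cortex of uninjected mice of 6 to 12 weeks. These nuclei carried a Cre-dependent nuclear membrane tag, SUN1-2xsfGFP-6xMYC, driven by Sst-IRES-Cre, Vip-IRES-Cre or Pv-Cre, with 2 samples per Cre line. The labels call the ATAC mice male, and the methods describe males and females.

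Reads had been collapsed into unique molecular identifiers (UMIs), so that a UMI stands for 1 captured RNA molecule. The tables held 47348 barcodes, of which 32335 with more than 200 UMIs were kept as nuclei, with a median of 712 UMIs each. The libraries held from 2496224 to 3041931 UMIs. The guidance genes took 132407 UMIs in all, or 0.465% of the total, and 47 of the 70 genes had 500 or more UMIs while 6 had fewer than 50. Nuclei were clustered without the guidance genes and clusters were named from marker lists, which gave 4 interneuron-like, 6 excitatory-like and 6 glial, vascular or immune-like types. In 14 of the 16 types every marker of the type's own list was higher than in the other types, and in PV-like and Layer 5 IT-like nuclei all but 1 were. The clusters had been named from the same lists, so this is no separate check of the names. The 16 types ranged from 226 nuclei (Lymphocyte-like) to 5191 nuclei (Layer 2/3-like), and 7791 nuclei were left unnamed. Lymphocyte-like nuclei came to 90.3% from set 1 and were missing from 1 library. The 10 libraries used the same barcode pool, and 5476 of 25866 barcode names occurred in more than 1 library.

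With 1 sample, no test between nucleus types was made. Levels are counts per 1000000 UMIs of the type (CPM), summed over its nuclei, and are compared for 1 gene between types, never between genes, since capture differs between genes. Intervals are 95% exact intervals that cover counting error only. A gene was called higher or lower when the summed levels were at least 2-fold apart with at least 50 UMIs over both groups. Where a group had no UMI of a gene, its level was taken as that of 3 UMIs before the gene was called lower there. Some genes absent from types of few UMIs, such as Lymphocyte-like and OPC-like nuclei, were therefore not called lower. A called gene was said to hold when it met the fold in each library set alone. Where library ranges are said not to overlap, the share of all genes called in that direction whose libraries did not overlap is given in the account of that comparison. Fewer nuclei that express a gene and less RNA per nucleus cannot be told apart in such sums.

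Guidance genes varied more between neuron types than the general run of genes with as many UMIs. Among 41 guidance genes with at least 500 UMIs in neurons, the level in the highest of the 10 neuron types was 2.31 times the median type (quartiles 1.65 and 4.35). Over all 7692 genes with that many UMIs the ratio was 1.44 (quartiles 1.29 and 1.72), at a median of 1434 UMIs against 1397 for the guidance genes. The ratio was at least 2 in 24 of the 41 guidance genes (58.5%) and in 1162 of all 7692 (15.1%). Layer 6 CT-like nuclei held the highest level of 8 of the 41 guidance genes, against 6.40% of all genes, and SST-like nuclei that of 1, Sema6d, against 6.47%. The map of levels by type shows the families side by side.

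**Figure D1:**
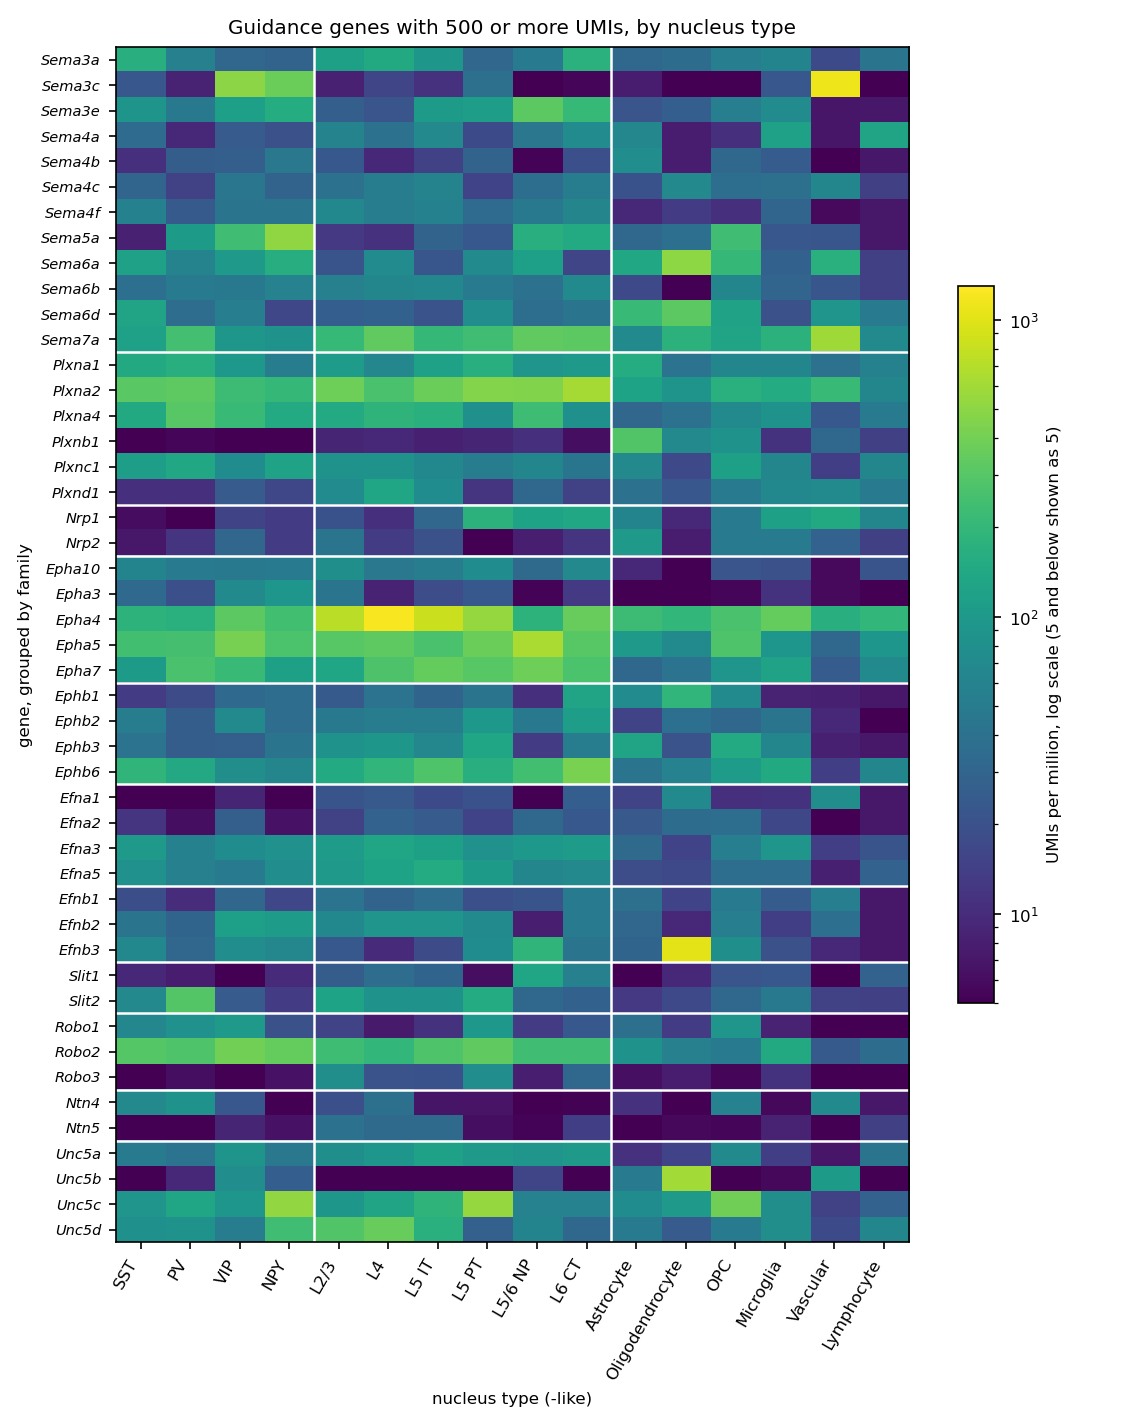
UMIs per 1000000 UMIs (CPM) (colour, log scale, values of 5 and below drawn as 5) of the 47 guidance genes with 500 or more UMIs, in rows by family, over the 16 nucleus types in columns. Single bright cells mark genes with 1 high type, such as Efnb3 at 1045 in Oligodendrocyte-like nuclei. Sema3c is high in Vascular-like (1118) and also in VIP-like (497) and NPY-like nuclei (369).

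UMIs in all nuclei are given next for the gene with most UMIs in each family, as a measure of the data behind it and not of its expression, since capture differs between genes. Epha4 held 17366 of the 33870 UMIs of the 9 EphA receptors, Plxna2 10323 of the 22168 of the 9 plexins, Robo2 6270 of the 8330 of the 4 Robo receptors and Ephb6 5780 of the 10918 of the 5 EphB receptors. Sema7a had the most UMIs of the 20 semaphorins (6972 of 26789), Unc5d of the 4 Unc5 receptors (4751 of 11597), Slit2 of the 3 Slits (2656 of 3829) and Nrp1 of the 2 neuropilins (1647 of 2371). Efna3 held 2811 of the 6638 UMIs of the 5 ephrin-A genes, Efnb2 1853 of the 4459 of the 3 ephrin-B genes and Ntn5 675 of the 1330 of the 3 netrins. Dcc, the attractive netrin receptor, had 72 UMIs in all and stood between 0 and 3.58 CPM in every type. Its classic ligand Ntn1 had 15 UMIs.

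The first question was which guidance genes separate the interneuron classes. SST-like nuclei (888 nuclei) stood apart from PV-like nuclei (1216 nuclei) mainly by more Sema3a and Sema6d and by far less Sema5a and Slit2. Of 33 guidance genes with enough UMIs, 5 were higher and 5 lower in SST-like nuclei, where 3.25% of all 7559 genes were higher and 4.75% lower. The median log2 ratio was 0.09 for the guidance genes and -0.06 for all genes. Of the 10 calls, 3 higher and 3 lower ones held in both library sets, as did 73.2% and 60.4% of all genes so called. Library ranges did not overlap for 1 of the 5 higher and 3 of the 5 lower genes, against 26.4% and 24.8% of all genes so called.

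Sema5a, a membrane semaphorin with thrombospondin repeats, ranged over the 10 libraries from 0 through a median of 5.52 to 38.7 CPM in SST-like nuclei, and from 69.5 through 95.8 to 161 in PV-like nuclei. The libraries of the 2 classes did not overlap. Summed, the level was 8.34 (7 UMIs) against 103 (133 UMIs), 12.4-fold lower in SST-like nuclei (5.84 to 31.4). Library 1-1 held 3 of the 7 UMIs, and without it the levels were 5.25 and 106 (20.1-fold). Slit2, a secreted ligand of Robo1 and Robo2, ran from 31.3 through 60.8 to 118 in SST-like libraries and from 201 through 301 to 361 in PV-like libraries. These also did not overlap, and the summed levels of 69.1 and 292 were 4.22-fold apart (3.19 to 5.66).

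Sema3a, a secreted repellent that binds neuropilin-1, showed the opposite order. Its SST-like libraries ran from 90.4 through 152 to 255 CPM and its PV-like libraries from 10.1 through 53.3 to 88.6, again with no overlap. The summed levels of 166 and 55.9 were 2.97-fold apart (2.22 to 4.00). Sema6d, a membrane ligand of plexin-A1, was 129 against 36.5 CPM (3.53-fold, 2.48 to 5.08) and higher in SST-like nuclei in 10 of 10 libraries, although the lowest SST-like library (55.2) lay under the highest PV-like one (57.1). Sema4f (57.2 against 24.1), Efnb3 (66.8 against 31.0) and Ephb2 (51.3 against 25.6) were the other genes higher in SST-like nuclei, and Efnb3 and Ephb2 did not hold in both sets. Among receptors, Epha7 was lower in SST-like nuclei, at 104 against 263 (2.54-fold, 2.00 to 3.25), with no overlap between libraries. Plxna4, a receptor of Sema3a and Sema6a, and the GPI-anchored Sema7a were also lower, 2.11-fold and 2.07-fold, in 10 of 10 libraries each but not 2-fold in each set.

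VIP-like nuclei (574 nuclei) differed from both other classes by Sema3c, a secreted semaphorin that binds both neuropilins. The VIP-like libraries ran from 297 through 476 to 656 CPM, the SST-like ones from 0 through 23.0 to 62.6 and the PV-like ones from 0 through 8.65 to 20.1. No VIP-like library came near either group. The summed levels were 497 (222 UMIs) in VIP-like, 22.6 (19 UMIs) in SST-like and 8.53 (11 UMIs) in PV-like nuclei, which made Sema3c 22-fold lower in SST-like (13.7 to 37.2) and 58.3-fold lower in PV-like nuclei (31.9 to 118). Barcodes with up to 200 UMIs, which were left out and may hold free RNA or small nuclei, had Sema3c at 25.8 CPM. In the same barcodes Sema5a was at 42.3, Slit2 at 61.0, Sema3a at 89.6, Sema6d at 68.7 and Unc5b at 64.8 CPM. Efnb3 was at 123 there, above its level in SST-like, PV-like and VIP-like nuclei. How far such RNA sets the levels in nuclei was not tested.

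Against VIP-like nuclei, 5 of 31 guidance genes were higher in SST-like nuclei (4.7% of 5590 genes) and 5 lower (4.49% of genes). The median log2 ratio was 0.00 for guidance genes and 0.04 for all genes. Besides Sema3c, Sema5a was lower, at 8.34 against 237 CPM (28.5-fold, 13.3 to 72.5) with no overlap (33.5% of all lower genes had none), followed by Efnb2 (42.9 against 114), Epha3 (33.4 against 71.7) and Epha7 (104 against 217), none of which was 2-fold lower in each set. The 5 higher genes all held in both sets, as did 58.2% of all higher genes. Sema3a was 166 against 31.4 (5.28-fold, 3.04 to 9.91), and Ntn4, a laminin-related netrin of basement membranes, was 67.9 against 22.4 (3.03-fold, 1.53 to 6.66). Slit2 was 69.1 against 24.6, Ephb6 190 against 78.4 and Sema6d 129 against 53.8, and for all 5 genes the library ranges of the 2 classes overlapped.

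Between PV-like and VIP-like nuclei, 3 of 33 guidance genes were higher in PV-like nuclei, where 10.1% of 6864 genes were, and 8 were lower, where 5.49% of genes were. The median log2 ratio was 0.08 for guidance genes and 0.13 for all genes. Slit2 led the higher genes. Its PV-like libraries (201 to 361) lay above all VIP-like libraries (0 through 21.8 to 71.3), as did those of 17.2% of all higher genes, and the summed levels of 292 and 24.6 were 11.8-fold apart (6.54 to 23.9). Ntn4 (86.1 against 22.4) and Sema7a (247 against 94.1) were the others, and all 3 held in both sets (56.3% of all higher genes did). Without library 1-1 Ntn4 was 6-fold in place of 3.84-fold apart, on 6 UMIs in VIP-like nuclei. After Sema3c, the lower genes were Efnb2 (30.3 against 114, 3.78-fold), Epha3 (19.4 against 71.7), Ephb2 (25.6 against 71.7), Sema3e (47.3 against 116), Efnb3 (31.0 against 76.2), Sema5a (103 against 237) and Unc5a (41.1 against 89.6). All but 1 of the 8 held in both sets, where 74.8% of all lower genes did.

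NPY-like nuclei (344 nuclei) entered no pairwise comparison, and their levels are given as a description. Sema5a ran from 264 through 572 to 760 CPM over libraries and summed to 514 (437 to 602), the highest of all 16 types. Unc5c, a repulsive netrin receptor, summed to 524 (446 to 612), against 91.8 in SST-like, 134 in PV-like and 91.9 in VIP-like nuclei. Sema3c stood at 369 (304 to 444), below VIP-like but over an overlapping range of libraries (222 to 581). Ntn4 had 0 of 303318 UMIs in NPY-like nuclei, against 67.9 CPM in SST-like and 86.1 in PV-like nuclei. A limit of 3 UMIs allows up to 9.89 CPM in NPY-like nuclei, and the exact 95% interval ends at 12.2. The plot of the interneuron classes by library shows these orders.

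**Figure D2:**
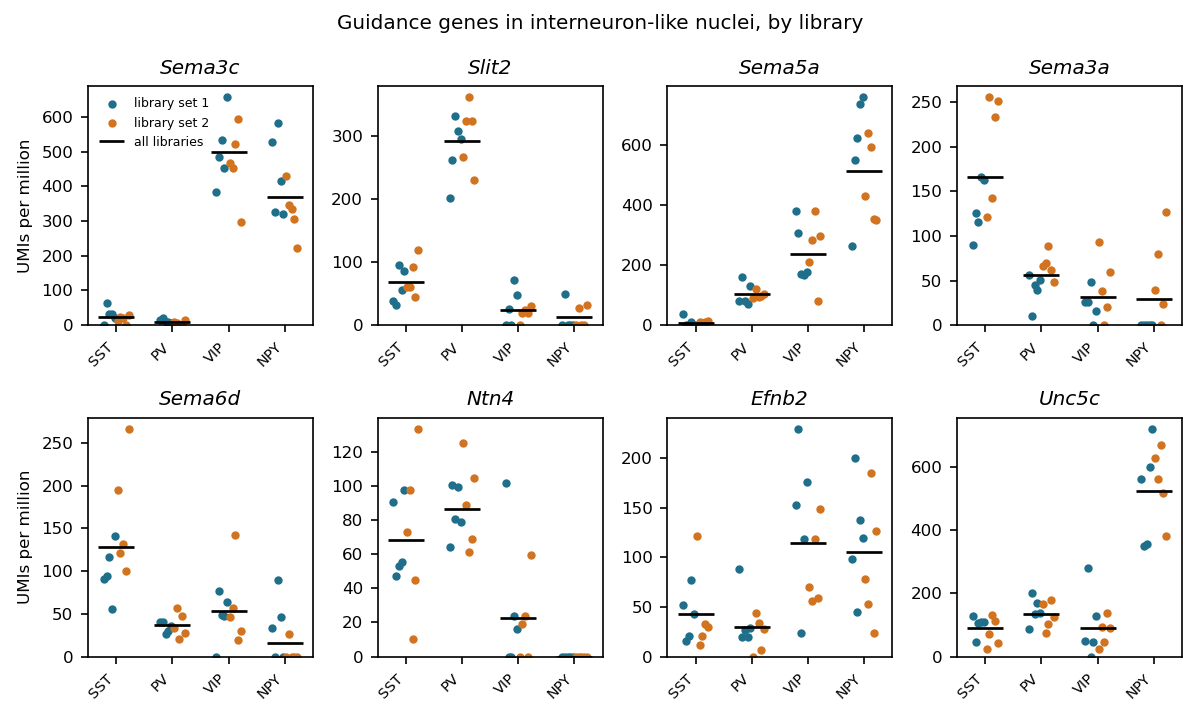
UMIs per 1000000 UMIs (CPM) of 8 guidance genes in the 4 interneuron-like types, with 1 point per library (blue set 1, orange set 2) and a bar at the level summed over all libraries. Slit2 is high in PV-like (292), Sema3c in VIP-like (497) and NPY-like (369), Sema3a in SST-like (166) and Unc5c in NPY-like nuclei (524), while Ntn4 is at 0 in every NPY-like library.

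The second question was how excitatory-like and interneuron-like nuclei differ. Of 58 guidance genes, 15 were higher in excitatory-like nuclei, where 8.42% of 13436 genes were, and 8 were lower, where 6.13% of genes were. The median log2 ratio was 0.36 for guidance genes and 0.02 for all genes. Of the 15 higher genes 12 held in both sets, as did all 8 lower ones, against 63.7% and 79.0% of all genes so called. Libraries did not overlap for 11 of the 15 and 7 of the 8, against 43.4% and 50.9% of all genes so called.

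The receptors Robo3 and Nrp1 led the genes higher in excitatory-like nuclei. Robo3, a divergent Robo of commissural axons, ran from 38.6 through 45.7 to 55.5 CPM in excitatory-like libraries and from 0 through 3.77 to 14.8 in interneuron-like ones. Nrp1, the coreceptor for class 3 semaphorins, ran from 51.4 through 61.8 to 68.6 against 0 through 5.53 to 23.5. In neither gene did the libraries overlap. The summed levels were 9.48-fold (5.62 to 17.4) and 7.99-fold apart (5.25 to 12.8). Plxnd1, the direct receptor of Sema3e, was 67.6 against 13.6 (4.99-fold, 3.63 to 7.05), and Epha4, which binds both ephrin classes, was 746 against 206. The ligands Slit3 (16.1 against 2.43), Efna1 (21.6 against 3.48), Ntn5 (29.1 against 5.56) and Slit1 (35.1 against 7.65) were higher as well. Slit3 had 7 UMIs in interneuron-like nuclei, and without library 2-5 its fold was 10.2 in place of 6.64. The layer groups were unequal, so these sums depend on their mix. In Layer 5 PT-like nuclei Plxnd1 was 11.8, Slit1 6.17 and Ntn5 6.17, near the interneuron-like sums, while Robo3 (76.9) and Nrp1 (177) stood well above theirs.

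The 8 genes higher in interneuron-like nuclei were mostly semaphorins. Sema3c was 126 against 12.5 (10.1-fold, 8.54 to 11.9), Sema4g 36.5 against 3.64 (10.0-fold, 7.33 to 13.7) and Sema5a 140 against 46.5 (3.00-fold, 2.66 to 3.38), with no overlap of libraries for any of them. Sema6a (94.2 against 37.3) and Sema6c (36.1 against 14.8) were the other semaphorins. Ntn4 was 61.9 against 17.0 (3.64-fold), Robo1, a Slit receptor, 73.7 against 22.1 (3.34-fold) and Unc5b, another netrin receptor, 20.2 against 3.02 (6.67-fold, 4.56 to 9.78). Sema3c, Sema5a, Ntn4 and Unc5b were unequal within the interneuron classes, so these sums depend on the mix of classes. Unc5b was 4.77, 9.31, 76.2 and 26.4 and Ntn4 67.9, 86.1, 22.4 and 0 CPM in SST-like, PV-like, VIP-like and NPY-like nuclei.

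Excitatory-like nuclei were then split by layer group, each compared with the other 5 groups together. In Layer 2/3-like nuclei 3 of 57 guidance genes were higher (2.62% of 12995 genes) and 7 lower (2.8% of genes), with median log2 ratios of -0.12 and 0.03 for guidance genes and all genes. Nrp2, the second neuropilin, ran from 24.0 through 43.3 to 58.5 CPM against 10.2 through 13.2 to 16.4 in the other groups, with no overlap. Its levels of 42.4 and 13.1 were 3.24-fold apart (2.66 to 3.96). Robo3 was 78.4 against 31.3 (2.51-fold, 2.19 to 2.87) and Epha3 42.9 against 14.1 (3.04-fold, 2.50 to 3.68). The lower genes were led by Sema5a (12.5 against 62.2), Sema3e (26.9 against 116), Nrp1 (20.3 against 79.8), Ephb1 (23.9 against 63.5), Epha7 (133 against 298) and Sema6a (21.3 against 44.7), with no overlap of libraries in these 6 genes. Of all genes called here, 35.9% of the higher and 53.8% of the lower ones had none. Nrp2 and Nrp1 thus stood in opposite order in these nuclei.

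In Layer 4-like nuclei 4 genes were higher (1.49% of all genes) and 9 lower (5.29%), with median log2 ratios of -0.12 and -0.09. Unc5d, a netrin receptor family member that also binds the adhesion protein Flrt2, ran from 307 through 349 to 445 against 138 through 164 to 184. Its levels of 356 and 162 were 2.20-fold apart (2.06 to 2.35) with no overlap (49.5% of all higher genes had none). Plxnd1 was 134 against 50.6 (2.65-fold, 2.36 to 2.96), Sema6a 73.3 against 28.1 (2.61-fold) and Ntn4 39.4 against 11.2 (3.5-fold, 2.80 to 4.37). Nrp1 was at its lowest of the layer groups, at 10.7 against 74.0 (6.89-fold, 5.06 to 9.61), and Sema5a (11 against 55.6), Sema3e (21.5 against 105), Efnb3 (9.97 against 37.1), Robo1 (7.41 against 25.8) and Epha3 (8.69 against 26.9) were also lower. Epha4 reached its highest level of any type in Layer 4-like nuclei, at 1231 CPM (1197 to 1267), and was not 2-fold above the other excitatory groups.

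Layer 5 IT-like nuclei, named for intratelencephalic projections, showed no higher guidance gene (1.08% of all genes were higher) and 5 lower ones (2.61% of genes), with median log2 ratios of -0.18 and 0.00. With the guidance genes left in the clustering 9 were called, a count with no share of all genes beside it. The lower genes were Sema4g (1.25, on 4 UMIs, against 4.12), Ntn4 (6.89 against 19.0), Robo3 (20.4 against 51.3), Robo1 (11.3 against 24.2) and Nrp1 (31.3 against 67.0). Only Robo3 separated all libraries (18.6% of all lower genes did), at 5.47 through 21.3 to 32.3 against 42.1 through 51.0 to 61.2. Efna5, a GPI-anchored ephrin, had its highest neuron level in this group, at 154 (140 to 168), as did Unc5a at 121 (109 to 133) and Sema4c at 60.5.

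Layer 5 PT-like nuclei (896 nuclei), named for the pyramidal tract, had Robo1, Unc5c and Sema3c as the genes most above the other groups. Here 10 guidance genes were higher (4.52% of all genes) and 14 lower (6.26%), with median log2 ratios of -0.06 and 0.05. Unc5c ran from 402 through 535 to 714 CPM against 95.9 through 112 to 127, with no overlap (32.5% of all higher genes had none). The levels of 539 and 110 were 4.89-fold apart (4.52 to 5.28). Robo1 was 95.9 against 14.5 (6.61-fold, 5.41 to 8.05) and higher in 10 of 10 libraries, although 1 library at 19.4 lay just under the highest value of the other groups (19.7). Nrp1 was 177 against 49.2 (3.59-fold, 3.14 to 4.09) with no overlap, beside 124 in Layer 5/6 NP-like and 141 in Layer 6 CT-like nuclei, and Sema3c was 39.3 against 9.81 (4.00-fold, 2.99 to 5.31).

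Of the genes higher in Layer 2/3-like or Layer 4-like nuclei, Unc5d, Plxnd1, Nrp2 and Ntn4 (6.73 against 18.0, on 12 UMIs) were lower in Layer 5 PT-like nuclei, Epha3 was 23.0 against 23.2, and Robo3 (76.9) and Sema6a (70.1) stood near their levels in those groups (78.4 and 73.3). Unc5d was 27.5 against 219 (7.98-fold lower, 6.02 to 10.8), Plxnd1 11.8 against 73.3 (6.22-fold, 4.05 to 10.1) and Nrp2 5.05 against 24.1 (4.77-fold, 2.49 to 10.5). Among ligands Slit1 was 6.17 against 38.1, Ntn5 6.17 against 31.5 and Sema3a 31.4 against 131. The libraries of Unc5d, Plxnd1, Nrp2, Slit1 and Ntn5 did not overlap with those of the other groups (38% of all lower genes had no overlap). Slit2 and Slit3 were at their highest among excitatory groups here, at 154 and 38.2 CPM.

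Layer 5/6 NP-like nuclei (499 nuclei), a near-projecting group, had 10 genes higher (5.83% of all genes) and 19 lower (13.7%), with median log2 ratios of -0.30 and -0.10. Efnb3, a membrane ligand of EphB receptors, ran from 107 through 185 to 395 against 17.0 through 29.7 to 34.8. Its levels of 191 and 28.4 were 6.72-fold apart (5.18 to 8.61). Slit1 was 135 against 33.1 (4.08-fold, 3.00 to 5.43) and Sema3e 318 against 83.6 (3.8-fold, 3.13 to 4.58), and none of the 3 overlapped (14.4% of all higher genes had no overlap). Sema5a was 167 against 44.1 (3.78-fold) with 1 library at 0. Efnb2 was 7.95 on 3 UMIs against 72.7 (9.14-fold lower, 3.12 to 44.4) and Ephb3 13.2 against 82.3 (6.22-fold, and 14.1-fold on 2 UMIs without library 1-2), while Efna1, Ntn4 and Slit3 rested on 1 UMI each in this group. With 377531 UMIs in all, several of these nuclei's low values are a handful of molecules: of the 19 lower genes 10 held in both sets, where 33.7% of all lower genes did. The astrocyte marker list summed to 2802 CPM in these nuclei, the highest of the 10 neuron types (430 to 2034 in the other layer groups), beside 2209 for the excitatory list (1878 to 4191). Its part in these values was not tested. When nuclei were named one by one from marker UMIs in place of clusters, 5 guidance genes were called in this group in place of 29, 12 in place of 24 in Layer 5 PT-like and 16 in place of 10 in Layer 2/3-like nuclei, and the lower calls of Ntn4 and Slit3 in this group turned to log2 ratios of 0.23 and 0.33. The share of all genes called went from 19.5% to 10% in this group, from 10.8% to 4.71% in Layer 5 PT-like and from 5.42% to 6.1% in Layer 2/3-like nuclei.

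Layer 6 CT-like nuclei (3885 nuclei), named for corticothalamic projections, had Sema5a and Ephb1 among their higher genes. Sema5a was higher still in Layer 5/6 NP-like nuclei, at 167 CPM. There were 6 higher genes (1.97% of all genes) and 11 lower ones (6.74%), with median log2 ratios of 0.08 and -0.08. Sema5a was 149 against 20.6 (7.21-fold, 6.28 to 8.30), with libraries from 79.0 through 134 to 250 against 10.2 through 20.0 to 28.6. The library sets differed, at 202 CPM in set 1 (141 to 250) and 105 in set 2 (79.0 to 126), and both lay above every library of the other groups combined. The same order of sets was seen for Sema5a in Layer 5/6 NP-like nuclei, at 259 and 78.1, but not in PV-like (104 and 102) or VIP-like nuclei (232 and 243). What separates the sets was not tested.

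Ephb1, an ephrin-B receptor, was 128 against 31.5 (4.06-fold, 3.57 to 4.61), Sema3e 206 against 58.4 (3.52-fold, 3.20 to 3.88) and Nrp1 141 against 40.9 (3.43-fold, 3.06 to 3.86). Ephb6, an Eph receptor without kinase activity, was 429 against 193 (2.22-fold), and Sema5b 16 against 5.81. Apart from Sema5b, these genes separated all libraries (61.7% of all higher genes did). Unc5d was 32.4 against 244 (7.54-fold lower, 6.31 to 9.07), Plxnd1 14.9 against 80.9, Slit2 28.1 against 108, Unc5c 58.4 against 173, Ntn4 5.15 against 20.0 and Sema6a 16 against 42.8, all with no overlap (38.6% of all lower genes had none). Plxna2, a receptor of Sema6a, reached its highest level of any type here, at 618 CPM (593 to 643).

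**Figure D3:**
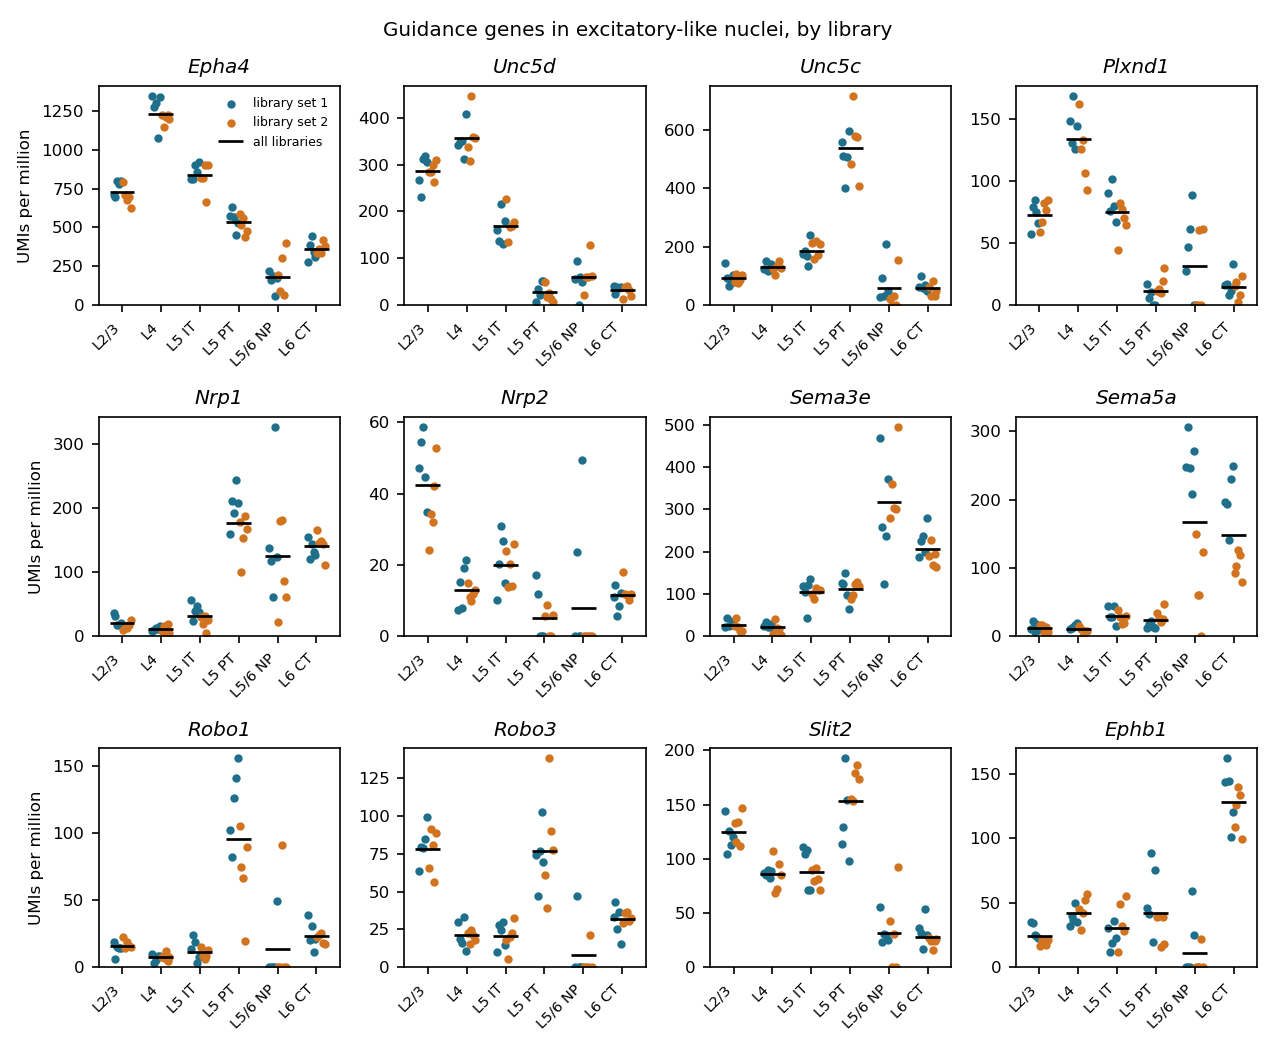
UMIs per 1000000 UMIs (CPM) of 12 guidance genes in the 6 excitatory-like layer groups, with 1 point per library (blue set 1, orange set 2) and a bar at the summed level. Epha4 (1231), Unc5d (356) and Plxnd1 (134) peak in Layer 4-like, Unc5c (539) and Robo1 (95.9) in Layer 5 PT-like and Ephb1 (128) in Layer 6 CT-like nuclei.

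The levels of a few genes over the layer groups, chosen after their values were seen, are set side by side here. Nrp1 was 20.3, 10.7 and 31.3 in Layer 2/3-like, Layer 4-like and Layer 5 IT-like nuclei and 177, 124 and 141 in Layer 5 PT-like, Layer 5/6 NP-like and Layer 6 CT-like nuclei. Plxnd1 and Unc5d ran the other way, with 73.0, 134 and 75.5 against 11.8, 31.8 and 14.9 for Plxnd1 and 286, 356 and 170 against 27.5, 60.9 and 32.4 for Unc5d. Other receptors followed neither order, such as Unc5c (94.6, 129 and 186 against 539, 58.3 and 58.4). Sema3e, the ligand of Plxnd1, was 26.9 and 21.5 in Layer 2/3-like and Layer 4-like nuclei and between 103 and 318 in the deeper groups. Robo2 ran from 199 to 331 over the layer groups and from 281 to 394 over the interneuron classes.

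Glial, vascular and immune-like nuclei were each compared with all neurons. These types are shallow, with medians from 289 to 476 UMIs per nucleus outside Vascular-like nuclei (1107), and neuronal RNA was present in them. The excitatory marker list summed to between 1010 and 1690 CPM in the 5 types other than Vascular-like (381), against 1878 to 4191 in the layer groups. The interneuron list was at 42.8 in Lymphocyte-like, 75.3 in Vascular-like and 167 to 200 CPM in the other 4 types, against 145 to 225 in the layer groups. How far this RNA sets the low levels of neuronal guidance genes in these types was not tested. More guidance genes were lower than higher in each of the 6 types, though by 16 to 15 of 58 in OPC-like nuclei. Over all genes too, lower calls outnumbered higher ones in each type but OPC-like nuclei, and the shares stand beside each type's counts. Naming nuclei one by one from marker UMIs gave fewer called genes, 131 over the 6 types in place of 225, with 12 in place of 39 in Astrocyte-like, 28 in place of 47 in Oligodendrocyte-like, 5 in place of 31 in OPC-like, 15 in place of 23 in Microglia-like and 21 in place of 34 in Lymphocyte-like nuclei. The share of all genes called moved in the same direction in these 5 types, from 44.4% to 22.6%, 44% to 24%, 27.9% to 7.35%, 31.6% to 20.7% and 41.1% to 26.9%. Vascular-like nuclei hardly changed, with 50 guidance genes called in place of 51 and 54.9% of all genes in place of 54.3%.

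Oligodendrocyte-like nuclei (1232 nuclei) had 10 of 59 guidance genes higher (11.3% of 13550 genes) and 37 lower (32.7%), with median log2 ratios of -1.48 and -0.41. Efnb3 ran from 888 through 1045 to 1164 CPM, against 23.6 through 36.2 to 42.8 in neurons. Unc5b ran from 392 through 620 to 724 against 2.15 through 4.85 to 8.91, and Plxnb3, a receptor of Sema5a, from 121 through 176 to 261 against 0 through 1.41 to 2.80. All 3 lay outside the neuronal range, as did the libraries of 38.5% of all higher genes. The folds were 30.5 (27.3 to 34.1) for Efnb3, 114 (91.5 to 142) for Unc5b and 132 (87.4 to 205) for Plxnb3. Sema6a (507 against 44.7) and Sema6d (318 against 37.9) were higher too, as was Ephb1 (195 against 47.1). Unc5b is a netrin receptor, and the netrins Ntn4 (1 UMI) and Ntn5 (3 UMIs) stood at 1.89 and 5.68 CPM in these nuclei. All 10 higher genes held in both sets, where 75.9% of all higher genes did.

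Oligodendrocyte precursor-like (OPC-like) nuclei shared part of this set, such as Sema6a. They had 15 of 58 genes higher (14.2% of 13492 genes) and 16 lower (13.8%), with median log2 ratios of -0.16 and 0.13. Sema3d, a secreted semaphorin, ran from 57.6 through 340 to 545 against 0.495 through 4.29 to 8.88, and its 317 against 4.53 was a 70.0-fold difference (49.9 to 97.5). In Oligodendrocyte-like nuclei it was 56.8. Sema5a was 236 against 58.7 (4.03-fold, 2.91 to 5.44) and did not hold in both sets, with 133 in set 1 and 335 in set 2. Sema6a was 204, Plxnb1, a receptor of Sema4d, 86.0 and Unc5c 392. In Oligodendrocyte-like nuclei these 3 genes were at 507, 68.1 and 100, and Sema5a was at 37.9. Unc5b had 0 of 186120 UMIs in OPC-like nuclei, against 596 CPM in Oligodendrocyte-like nuclei. A limit of 3 UMIs allows up to 16.1 CPM in OPC-like nuclei, and the exact 95% interval ends at 19.8.

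In Astrocyte-like nuclei (1270 nuclei) 9 of 60 guidance genes were higher (13.6% of 13657 genes) and 30 lower (30.7%), with median log2 ratios of -0.96 and -0.41. Plxnb1 ran from 165 through 259 to 392 CPM against 3.44 through 8.70 to 12.0 in neurons, with no overlap (39.6% of all higher genes had none). The levels of 285 and 7.83 were 36.3-fold apart (29.3 to 45.0). Sema6d was 214 against 37.9 (5.66-fold, 4.69 to 6.79), Nrp2 100 against 21.2 (4.72-fold, 3.58 to 6.14), Sema4b 76.6 against 19.2 and Unc5b 48.5 against 5.25. Among the lower genes were Unc5a (10.9 against 89.8), Slit2 (12.5 against 100) and Epha7 (32.8 against 239).

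In Vascular-like nuclei (576 nuclei) 12 of 61 guidance genes were higher than in all neurons together (18.5% of 13820 genes) and 39 lower (35.8%), with median log2 ratios of -2.06 and -0.38. Sema3c ran from 756 through 1171 to 1325 CPM against 17.1 through 28.3 to 39.4, and Robo4, the endothelial Robo, from 152 through 251 to 329 against 0 through 1.64 to 2.40. Neither overlapped (55.3% of all higher genes did not). The folds were 40.8 (36.8 to 45.3) and 162 (112 to 242). Sema3g was 91.5 against 0.815 (112-fold, 66.7 to 199), Epha2 78.8 against 2.17 (36.3-fold, 24.7 to 53.6) and Unc5b 103 against 5.25 (19.6-fold). Robo4, Sema3g and Epha2 were at or under 3.58 CPM in each neuron type, whereas Sema3c reached 497 and Unc5b 76.2 in VIP-like neurons. Sema7a was at its highest of all types, 588 CPM (537.5 to 641), and Ephb4, an ephrin-B2 receptor of veins, was 35.9 (24.4 to 51.0) against at most 1.55 in any neuron type.

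Microglia-like nuclei (560 nuclei) had 5 of 59 genes higher (13.7% of 13663 genes) and 18 lower (17.9%), with median log2 ratios of -0.76 and -0.21, and Lymphocyte-like nuclei 2 of 58 higher (17% of 13546 genes) and 32 lower (24.1%), with medians of -1.44 and 0.14. Sema4d, a membrane semaphorin first known from immune cells, was the leading gene of both. It ran from 43.6 through 131 to 213 CPM in Microglia-like libraries against 4.73 through 6.39 to 8.88 in neurons, and its level of 132 was 20.4-fold that of neurons (14.4 to 28.6). In Lymphocyte-like nuclei it was 221 (34.2-fold, 22.4 to 50.6) and was 0 in 1 of the 9 libraries that had such nuclei. Sema4a was 121 in Microglia-like and 128 in Lymphocyte-like nuclei against 51.2 in neurons. The lymphocyte marker list summed to 624 CPM in Microglia-like and 3803 in Lymphocyte-like nuclei, and the microglia list to 9470 and 400. The part of such mixing in the genes high in both types was not tested. Nrp1 (118) and Nrp2 (50.6) were higher in Microglia-like nuclei and did not hold in both sets. Epha2 was higher there too, at 16.9 on 6 UMIs. Of the 32 genes lower in Lymphocyte-like nuclei 7 held in both sets, where 19.5% of all lower genes did, and with 140157 UMIs in all several of them rested on 1 UMI. Set 2 gave few of these nuclei, and a sum of 0 in a set was set to 3 UMIs. A failure to hold here cannot be told apart from low depth in set 2.

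**Figure D4:**
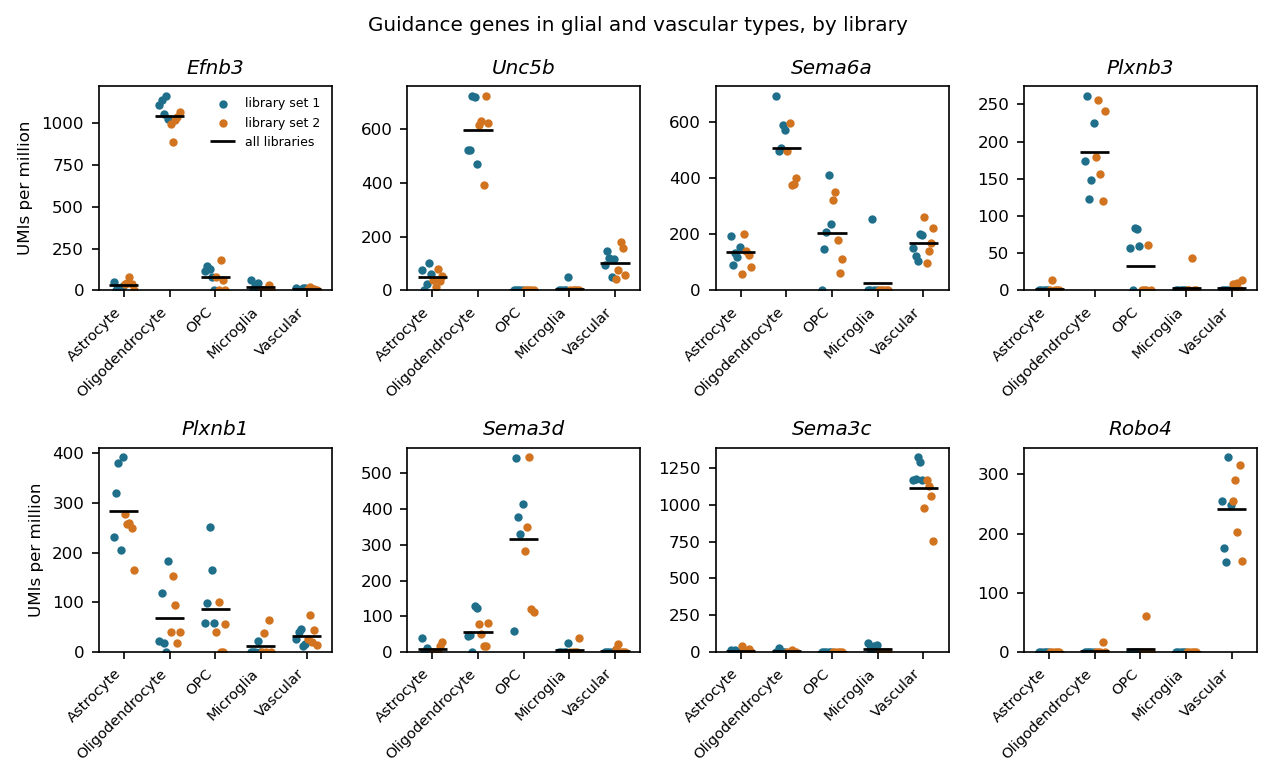
UMIs per 1000000 UMIs (CPM) of 8 guidance genes in the Astrocyte-like, Oligodendrocyte-like, OPC-like, Microglia-like and Vascular-like nuclei, with 1 point per library (blue set 1, orange set 2) and a bar at the summed level. Efnb3 (1045), Unc5b (596), Sema6a (507) and Plxnb3 (185) are highest in Oligodendrocyte-like, Plxnb1 (285) in Astrocyte-like, Sema3d (317) in OPC-like, and Sema3c (1118) and Robo4 (242) in Vascular-like nuclei.

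Coreceptors, adhesion molecules and cytoplasmic partners of the guidance receptors were taken as a second list, of which 62 of 64 genes had a column. Of these, 6 of 45 were higher (3.25% of all genes) and 2 lower (4.75%) in SST-like than PV-like nuclei. In SST-like against VIP-like nuclei 1 of 41 was higher (4.7%) and 3 lower (4.49%), and in PV-like against VIP-like nuclei 1 of 44 was higher (10.1%) and 7 lower (5.49%). Chl1, an adhesion molecule of the L1 family, was 939, 180 and 766 CPM in SST-like, PV-like and VIP-like nuclei. Rgma, a repulsive ligand of neogenin, was 14.3, 6.21 and 103. Ntng1, a GPI-anchored netrin relative, was 72.1 in PV-like and 6.72 in VIP-like nuclei. In excitatory-like against interneuron-like nuclei 8 of 58 were higher (8.42% of all genes), led by Ngef (332 against 82.4), and 5 lower (6.13%), led by Vav2 (3.96 against 32.7). Over the layer groups from 0 to 7 of 58 were higher (1.08% to 5.83% of all genes) and from 2 to 10 lower (2.61% to 13.7%). Rgma was 197 in Layer 5 PT-like nuclei against 31.9 in the other groups, and 10.7 in Layer 4-like nuclei against 56.5. Against neurons, from 7 to 13 of 58 were higher in the 6 non-neuronal types (11.3% to 18.5% of all genes) and from 12 to 31 lower (13.8% to 35.8%). Rgma in Astrocyte-like (566 against 44.7), Cntn2 in Oligodendrocyte-like (609 against 66.5) and Cntn1 in OPC-like nuclei (2203 against 497) were among the higher genes.

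Scaling each sum with trimmed mean of M-values (TMM) factors moved the log2 ratios of all genes by -0.11 in Layer 2/3-like, -0.15 in Layer 5 PT-like, 0.19 in Astrocyte-like, 0.23 in Oligodendrocyte-like and -0.12 in OPC-like nuclei and by less than 0.1 elsewhere. The 168 named ratios are of called genes at least 2-fold apart, so shifts of this size could change no sign, and none changed.

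The ATAC samples were used to ask whether chromatin at the same genes differed between the 3 Cre lines. They held from 1801883 to 2256073 reads in the reference regions, and reads at marker loci followed the labels. Regions at Pvalb had 33.1 and 42.7 reads per 1000000 in the PV samples and 12.4 to 17.7 in the others, those at Vip 21.3 and 24.6 in the VIP samples and 2.77 to 5.25 elsewhere, and those at Sst 23.1 and 26.6 in the SST samples and 2.03 to 6.10 elsewhere. Lhx6, shared by the SST and PV lineages, had 55.9 to 69.9 in these lines and 7.60 and 8.44 in VIP samples. A region was counted for a gene when it lay in the gene body or within 2 kb before its start. This gave 1880 of 323369 regions at 68 guidance genes, of which 275 had enough reads to be tested among 40338 in all. Nuclei came from whole cortex, not from V1.

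At an adjusted p under 0.05 by edgeR's quasi-likelihood test with Benjamini-Hochberg adjustment over all tested regions, 8 of the 275 regions were more open in SST than PV samples and 10 less open, where 3.96% and 4.33% of all regions were. Between SST and VIP samples 52 were more and 56 less open, with 17.8% and 18.4% of all regions. Between PV and VIP samples 75 were more and 71 less open, with 24.6% of all regions in each direction. As shares of the 275 these were 2.91% and 3.64%, 18.9% and 20.4%, and 27.3% and 25.8%, all close to those of all regions. Open chromatin at guidance genes thus differed about as often as elsewhere in this fit. With 2 samples per line, p-values measure the spread between these samples only. The counts of all 3 contrasts moved when 1 sample was left out, most for SST against PV. Such a fit leaves 1 sample in a line and tests other regions, and what moved the counts was not tested. DESeq2 called 2, 67 and 80 regions in these 3 contrasts, against 18, 108 and 146. Shares of all regions are given for the main fit only. Without the low-count filter edgeR called none of 1808 regions between SST and PV samples, 137 of them at an unadjusted p under 0.05, so that the SST against PV calls named here, those at Unc5c, Sema5a and Ephb2 among them, were lost.

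Single regions had nearly all of their reads in 1 line. An intronic region of Sema5b at chr16:35600126-35600776, 59306 bases from the gene start, had 74 and 94 reads in the VIP samples, 1 and 2 in the SST samples and 0 and 0 in the PV samples. Its log2 ratio was -5.63 ± 0.52 (SE, edgeR quasi-likelihood test, adjusted p = 1.65e-06) for SST against VIP. An intronic region of Plxna2 at chr1:194746667-194747395 had 75 and 110 reads in VIP, 2 and 5 in SST and 2 and 0 in PV samples (SST against VIP -4.61 ± 0.49, adjusted p = 3.52e-06 by edgeR). In the nuclei, Sema5b was 53.8 CPM in VIP-like against 3.58 in SST-like and 6.21 in PV-like nuclei, on 24 UMIs in VIP-like nuclei, whereas Plxna2 was lower in VIP-like (229) than in SST-like (314) and PV-like nuclei (324). Sema5b thus had more RNA where the region was open, but too few UMIs for a call between the classes. Plxna2 had less, but was less than 2-fold apart and not called.

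An intronic region of Unc5c at chr3:141598762-141599463 had the smallest p of the regions at guidance genes between SST and PV samples. It had 34.1 and 33.4 reads per 1000000 in PV, 2.86 and 8.06 in SST and 3.40 and 3.00 in VIP samples, and the log2 ratio for SST against PV was -2.57 ± 0.43 (adjusted p = 0.00339 by edgeR). Unc5c RNA was 134 CPM in PV-like nuclei and 91.8 in SST-like and 91.9 in VIP-like nuclei, less than 2-fold apart. An intronic region of Sema3e at chr5:14092186-14092934 had 63.2 and 62.1 reads per 1000000 in PV, 25.8 and 40.3 in SST and 2.72 and 4.8 in VIP samples (PV against VIP 4.01 ± 0.41, adjusted p = 3.00e-06 by edgeR).

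The middle 200 bases of these 4 regions are shown because those at Sema5b, Plxna2 and Sema3e had the 3 smallest p-values at guidance genes between PV and VIP samples and that at Unc5c the smallest between SST and PV samples, and the 200 bases before the start of Slit2 because its start and its RNA differed in the same direction. Capitals mark matches to the motifs searched on both strands, which were TAATTA (homeodomain core), CAGCTG (E-box), TGANTCA (AP-1 core), TATTTATA (MEF2 core) and GGGCGG (GC box). The first 4 are plus-strand sequences of GRCm38.p6 at chr3:141599013-141599212, chr16:35600351-35600550, chr1:194746931-194747130 and chr5:14092460-14092659, and the Slit2 promoter is the RefSeq promoter at chr5:47982955-47983154 on the plus strand of the same build.
Unc5c region: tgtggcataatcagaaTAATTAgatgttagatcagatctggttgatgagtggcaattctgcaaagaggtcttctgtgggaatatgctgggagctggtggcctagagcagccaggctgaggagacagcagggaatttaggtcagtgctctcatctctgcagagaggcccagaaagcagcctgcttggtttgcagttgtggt
Sema5b region: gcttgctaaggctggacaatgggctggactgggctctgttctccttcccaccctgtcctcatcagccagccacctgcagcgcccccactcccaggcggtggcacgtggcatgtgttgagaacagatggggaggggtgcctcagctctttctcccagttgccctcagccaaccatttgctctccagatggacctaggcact
Plxna2 region: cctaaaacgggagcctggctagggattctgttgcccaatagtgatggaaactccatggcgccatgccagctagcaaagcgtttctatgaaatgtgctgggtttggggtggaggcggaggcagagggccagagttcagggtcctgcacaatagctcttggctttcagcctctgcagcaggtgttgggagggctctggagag
Sema3e region: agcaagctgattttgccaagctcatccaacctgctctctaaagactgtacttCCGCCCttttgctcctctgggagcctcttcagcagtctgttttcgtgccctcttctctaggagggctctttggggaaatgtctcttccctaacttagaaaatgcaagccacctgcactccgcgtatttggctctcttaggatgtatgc
Slit2 promoter: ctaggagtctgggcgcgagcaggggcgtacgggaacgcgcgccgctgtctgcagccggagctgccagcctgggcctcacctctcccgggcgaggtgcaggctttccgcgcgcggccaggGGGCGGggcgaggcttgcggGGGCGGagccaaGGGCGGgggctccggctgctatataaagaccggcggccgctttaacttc

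The Unc5c region held 1 TAATTA, which 2.43% of the middle 200 bases of all 40329 regions read from the genome held. The Sema3e region held 1 GC box (27.2% of all regions), and the Sema5b and Plxna2 regions held none of the 5 motifs. The Slit2 promoter held 3 GC boxes, and 31% of 32851 RefSeq promoters of this length held at least 1. A match is only a run of letters. Among guidance gene regions, CAGCTG occurred in 24 of 71 that were more open in VIP than PV samples and in 11 of 75 that were more open in PV samples, against 33.3% and 25.3% of all regions called in those directions. GGGCGG occurred in 24 of the 71 and 10 of the 75, against 30.1% and 15.4%.

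At Slit2 all regions had the direction of the RNA against VIP. All 4 of its tested regions, 3 of them at annotated starts, were more open in PV and in SST samples than in VIP samples. The region over the first start, chr5:47982612-47983807, had 52.8 and 33.4 reads per 1000000 in PV, 23.6 and 20.5 in SST and 4.09 and 7.21 in VIP samples. No VIP value reached any value of the other lines. The log2 ratio was 2.90 ± 0.41 for PV against VIP (adjusted p = 5.11e-05 by edgeR) and 1.93 ± 0.44 for SST against VIP (adjusted p = 0.00223 by edgeR). For SST against PV it was -0.97 ± 0.34 and did not pass (adjusted p = 0.0853 by edgeR), although every SST value lay under both PV values, while the RNA was 4.22-fold apart.

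Sema3c was the opposite case. Its single tested region, at the gene start (chr5:17574245-17574982), had 84.4 and 103 reads per 1000000 in VIP, 80.9 and 70.1 in SST and 77.1 and 98.6 in PV samples. The PV samples overlapped with both other lines, while both SST samples lay under both VIP samples, in the direction of the RNA. The log2 ratio was -0.31 ± 0.22 for SST against VIP (adjusted p = 0.294 by edgeR) and -0.09 ± 0.22 for PV against VIP (adjusted p = 0.746 by edgeR), beside log2 RNA ratios of -4.46 and -5.87. Sema3e RNA was lower in PV-like than VIP-like nuclei, and 3 of its 4 tested regions were more open in PV samples, the start included (1.45 ± 0.42, adjusted p = 0.00929 by edgeR), while 1 was less open.

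Sema5a was mixed. Its start at chr15:32244521-32245346 was less open in SST than PV samples (22.9 and 20.5 against 47.9 and 42.7 reads per 1000000, -1.06 ± 0.30, adjusted p = 0.0362 by edgeR), in the direction of the RNA. The VIP samples had 30.0 and 29.4 there (PV against VIP 0.61 ± 0.29, adjusted p = 0.0874 by edgeR), while the RNA was higher in VIP-like than PV-like nuclei. Against VIP samples 1 of its 7 regions was less open in SST samples and 2 were more open. The start of Ephb2 at chr4:136835672-136836806 had 4.17 and 2.33 reads per 1000000 in PV, 11.4 and 26.1 in SST and 32 and 21.6 in VIP samples, so that PV was lowest, as in the RNA, while SST and VIP overlapped. PV was lower than SST (2.50 ± 0.56, adjusted p = 0.0121 by edgeR) and lower than VIP (-2.99 ± 0.53, adjusted p = 0.000315 by edgeR).

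The regions that passed the test were then set beside the RNA of the called guidance genes of the same classes, at most 6 per direction by fold, which left out Sema5a and Unc5a between PV and VIP. Between SST and PV the 10 genes had 56 tested regions, of which 6 went with the RNA and 1 against it. Between SST and VIP 12 of 42 regions went with it and 4 against, and between PV and VIP 14 of 30 went with it and 5 against. For the omitted Sema5a, 2 of 7 regions went with the RNA and 2 against it, and for Unc5a 1 of 4 went with it. Of all tested regions, up to 4.33%, 18.4% and 24.6% passed in a given direction in these contrasts. Slit2 gave 4 of the 12 and 4 of the 14. The 3 contrasts share samples, and RNA came from V1 while chromatin came from whole cortex. The plot of reads by sample shows the contrast between Slit2 and Sema3c.

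**Figure D5:**
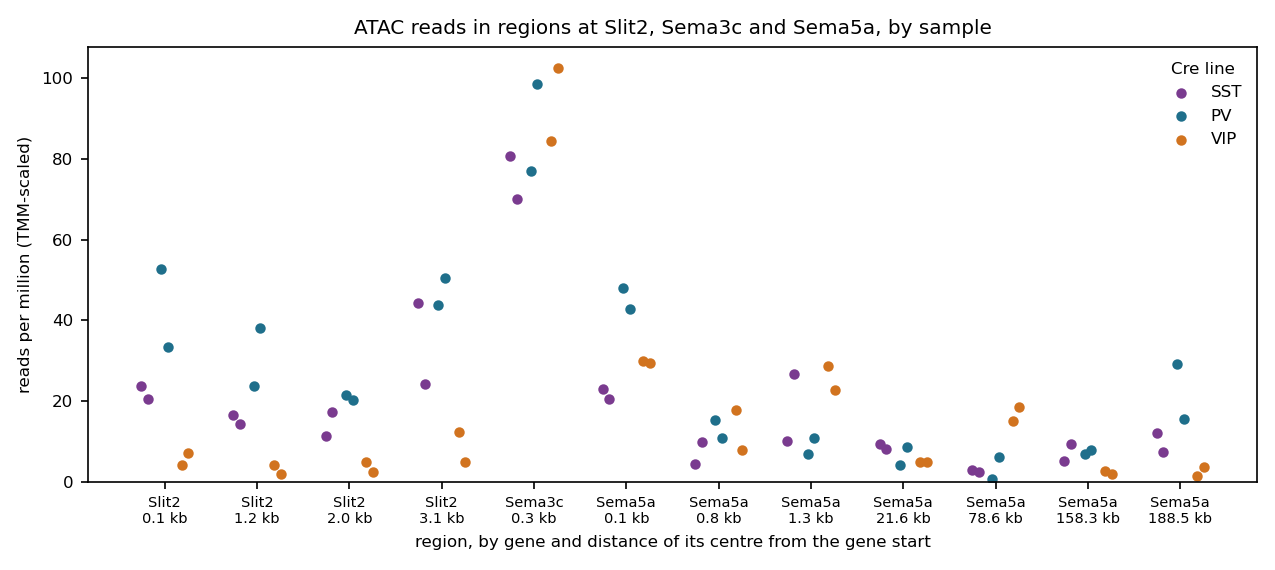
ATAC reads per 1000000 (TMM-scaled) in the tested regions at Slit2, Sema3c and Sema5a, labelled by the distance of the region's centre from the gene start, with 1 point per sample (purple SST, blue PV, orange VIP). At the Slit2 start the VIP samples lie at 4.09 and 7.21 and the others at 20.5 or above, whereas at the Sema3c start the samples lie between 70.1 and 103, with PV overlapping both other lines and SST (up to 80.9) under VIP (from 84.4).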

How the data were processed

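The authors made the deposited single-nucleus tables as UMI counts with the inDrops pipeline, aligning reads to GRCm38 transcripts with viral barcode contigs added, and deposited 1 table per library. Viral UMIs were left out and barcodes of 200 UMIs or fewer dropped. Clusters (Seurat 5.3.0, 30 principal components, resolution 1.5) were made without the guidance genes and named from marker lists. No doublet caller was run. UMIs were summed per type and library, and ratios carry exact conditional 95% intervals. For ATAC-seq the authors trimmed reads with Trimmomatic 0.33, aligned them to mm10 with Subread 1.4.6-p3, removed duplicates and deposited read counts per reference region, with other columns that mark by 0 or 1 whether a region was a peak in a sample, per the file headers. Whether reads were shifted for the transposase is not given in the sources used here. Each pair of Cre lines was compared in 1 model of all 6 samples, with a low-count filter, TMM and the quasi-likelihood test of edgeR 4.0.16 (R 4.3.3), and DESeq2 1.42.0 was an alternative. Both steps were run on simulated data. The simulated UMI sums had counting error only, so they say nothing on the spread between libraries. Gene positions came from GENCODE mouse release 21, and promoters from RefSeq matched 58 of 68 genes. A table of the authors' own specificity folds was not used.

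The guidance genes, the second gene list and the markers were chosen with earlier results of these data known. Genes named with full values were the called guidance genes, at most 6 per direction and comparison by fold, the genes with most UMIs per type and family, and the Dcc, Unc5, Robo, Slit, netrin and neuropilin genes. For ATAC-seq they were at most 5 called regions per contrast by p and the regions at genes named between the same classes. Further called genes given only by their levels were added after their values were seen. Intervals cover counting error only. Alternatives were another scaling, UMI minimum, nucleus minimum or way of naming nuclei, either library set alone and leaving out each library. For ATAC-seq they were the tool, normalization, filter, replicate block, gene window and leaving out each sample.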

Additional observations from a re-analysis of the deposited data

Results flagged for a closer look

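Of 73 groups of 10 library values checked, 6 had 1 library further from the others than Dixon's limit. Chance gives about 1 in 20 for values with a normal spread. Several of the 6 rest on a few UMIs, for which that rate need not hold. In PV-like nuclei these were Efnb2 at 88.5 counts per 1000000 UMIs (CPM) in library 1-1 (11 UMIs, others 0 to 44.4), Ephb2 at 49.6 in library 1-4 (5 UMIs, others 13.6 to 32.2) and Plxna4 at 499.8 in library 2-1 (60 UMIs, others 209 to 355). In SST-like nuclei they were Sema3c at 62.6 in library 1-2 (4 UMIs, others 0 to 33.1) and Sema5a at 38.7 in library 1-1 (3 UMIs, others 0 to 14.8), and in VIP-like nuclei Sema7a at 190 in library 1-4 (8 UMIs, others 39.7 to 119). The 6 values fell in 4 libraries.

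Outside the named types, Efnb1, an ephrin-B ligand, stood at 124 CPM in an unnamed cluster of 554 nuclei (72 UMIs), above its highest level in a named type, 54.5 in Vascular-like nuclei.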

How the results depend on the processing

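None of the 168 named ratios changed sign under either library set alone, the stricter nucleus minimum or leaving out any library, among the values that could be had (9 had 0 UMIs on 1 side). None did under TMM scaling either, but its shifts of at most 0.23 could not change the sign of a 2-fold ratio. All 168 ratios had been picked as at least 2-fold in the sum of these same libraries. Signs kept without 1 library or within a set are therefore no separate support. The sets alone moved 19 and 21 ratios by more than the spread between libraries. Naming nuclei one by one from marker UMIs moved 64 and reversed 8 (log2): Sema5b in Layer 5 PT-like 0.076, Unc5b -0.17, Ntn4 0.23 and Slit3 0.33 in Layer 5/6 NP-like, and Sema4f 0.14, Ntn5 0.091, Sema4a 0.60 and Epha3 0.047 in OPC-like nuclei. It gave 16 called genes in Layer 2/3-like, 12 in Layer 5 PT-like, 5 in Layer 5/6 NP-like, 12 in Astrocyte-like, 28 in Oligodendrocyte-like, 5 in OPC-like, 15 in Microglia-like and 21 in Lymphocyte-like nuclei, and 131 over the non-neuronal types. The counts of called genes and regions that follow have no share over all beside them. They therefore cannot be set against the general run. A minimum of 20 UMIs gave 17 called genes for SST-like and 20 for PV-like against VIP-like nuclei, and library set 1 alone gave 6 for SST-like against VIP-like nuclei. Leaving the guidance genes in the clustering gave 9 in Layer 5 IT-like nuclei, and set 2 alone gave 11 in Lymphocyte-like nuclei. Requiring 10 UMIs expected in the smaller group, chosen after seeing the data, gave 18 in Layer 5/6 NP-like, 15 in OPC-like, 14 in Microglia-like and 17 in Lymphocyte-like nuclei. For SST against PV, SST against VIP and PV against VIP in ATAC-seq, DESeq2 called 2, 67 and 80 regions and edgeR without a low-count filter 0, 56 and 84. Beside the 0, 137 of 1808 regions had an unadjusted p under 0.05. Leaving out 1 sample gave 2 to 41, 68 to 120 and 93 to 194 regions. SST against PV fell to 3 without PV replicate 1 and 2 without PV replicate 2 and reached 41 without SST replicate 1. SST against VIP gave 68 without VIP replicate 2, and PV against VIP 95 without PV replicate 1 and 93 without VIP replicate 2. The methods give 1 animal per ATAC sample and a separate cross per Cre line, so same-numbered samples share no animal. Whether they were prepared together is not stated, and they did not deviate together (r = 0.02, 0.03 and -0.04). With the replicate block 15, 102 and 142 regions passed, against 18, 108 and 146. The cause of these shifts was not tested. Depth limits the small types: 3 UMIs stood for 16.1 CPM in OPC-like and 21.4 in Lymphocyte-like nuclei, against 0.495 in Layer 2/3-like nuclei.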
